A study of Mus musculus with 24 samples.

Results

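Of the 1715 genes that the deposited count table annotates as long intergenic noncoding RNAs (lincRNAs), 359 were expressed in differentiating muscle cells and are described here, out of 28109 genes of all kinds. A lincRNA was taken as expressed when its raw read counts summed to at least 500 over the 24 libraries, and H19, Meg3, Rian and Mirg were left out by name. The members were thus chosen by their summed raw counts, which are no finding. At this limit Gm15663 was just inside with 500 reads, followed by Gm17525 and Gm9903 with 501 each, whereas Gm6297 and 9130204K15Rik with 498 and A330023F24Rik with 497 were just outside. A gene that is high in 1 group only can pass such a limit through that group, so counts of members that differ between groups are given as descriptions beside the share of all genes that differ.

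RNA-seq was performed on 2 kinds of mouse muscle precursor, the C2C12 myoblast line of the C3H strain and primary myoblasts (PMs) isolated from C57/B6 mice that were 3 to 4 weeks old. Both received either a control siRNA directed at luciferase (labelled siLuc, hereafter siControl) or a mixture that silences Tead1 plus Tead4 (labelled siT1/4, hereafter siTead1/4). RNA was taken at day 0, which is 24 hours after transfection and before differentiation, and at days 3 and 6 in medium with 2% horse serum. Each of the 12 groups held 2 biological replicates. The control cells also went through transfection, C2C12 is a single established line, and cell type, mouse strain and culture conditions cannot be told apart in these samples.

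A lincRNA is a transcript longer than a typical small RNA that lies outside protein-coding genes and has no long open reading frame. Some lincRNAs act in the nucleus as scaffolds, some act on neighbouring genes, and some are mainly the precursors from which small nucleolar RNAs (snoRNAs) or microRNAs (miRNAs) are cut out. Tead1 and Tead4 belong to the TEAD family of transcription factors, which bind the MCAT element of muscle gene promoters and serve as DNA-binding partners of the Hippo pathway coactivators Yap and Taz. Differentiating myoblasts leave the cell cycle, activate the myogenic factor Myog and fuse into myotubes.

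The libraries held between 25453830 and 52784510 reads in genes, and the 359 lincRNAs took between 0.168% and 0.333% of them. Tead1 levels in siTead1/4 cells were 18.2% to 69.5% of those in siControl cells over the 6 pairs of groups, and Tead4 levels were 16.8% to 41.0%. The replicates of the 2 groups overlapped for Tead1 in C2C12 at day 6, where siTead1/4 cells had 70.6 and 77.0 CPM (read counts scaled to library size, with the TMM factors of edgeR) and siControl cells 76.0 and 136 CPM. The summed level of 7 myogenic markers was 6265 to 21625 CPM in PMs and 557 to 13340 CPM in C2C12. This sum was lower in siTead1/4 than in siControl cells, with no overlap, in 5 of the 6 pairs of groups, all but C2C12 at day 0. At day 3 it was 10050 to 12951 CPM in siControl and 3592 to 4752 CPM in siTead1/4 C2C12 cells, and 21114 to 21625 against 17041 to 19459 CPM in PMs. Macrophage markers summed to 0.589 to 2.28 CPM in all libraries, with Ptprc, Emr1 or both at 0 in every group but siTead1/4 PMs at day 0, and endothelial markers to 1.69 to 11.7 CPM in PMs and at most 0.741 CPM in C2C12. Schwann cell markers reached 14.2 CPM in 1 PM library and at most 2.11 CPM in C2C12, adipocyte markers 45.8 to 97.4 CPM in PMs and 7.35 to 60.8 CPM in C2C12, and fibroblast markers 349 to 1032 CPM in PMs and 789 to 3264 CPM in C2C12. Plin1 was at 0 in every C2C12 group. Adipoq, Plin1 or both were at 0 in every PM group but siControl at day 3 and siTead1/4 at day 0. In C2C12, Lum and Thy1 were at 0 in both groups of day 0, and Thy1 in siControl at day 6 and siTead1/4 at day 3. Sox10 was at 0 in siControl C2C12 at day 3 and in siTead1/4 C2C12 at every day, and Kdr in siTead1/4 C2C12 at day 6. The sums there rest on the other markers of each list. The siTead1/4 sums lay above the siControl sums with no overlap for fibroblast markers at day 0 in both cell types, and below them in PMs at day 6. They likewise lay above for adipocyte markers in PMs at days 0 and 3 and in C2C12 at day 6, for endothelial markers in C2C12 at days 3 and 6 and for macrophage markers in PMs at day 3. The part of these markers in the differences below was not tested. In bulk RNA, fewer cells of a type and less RNA per cell cannot be told apart.

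Per kilobase of gene length, the median level of the lincRNAs over all libraries was 0.704 CPM, and that of the 14924 protein-coding genes tested was 6.30 CPM. These levels are a description, since summed reads chose the lincRNAs and another filter the protein-coding genes. Reads were concentrated in few genes, since the 10 with the most reads held 56.6% of the reads of all members. The spread between replicates was larger for the lincRNAs, with a median biological coefficient of variation of 0.189 in PMs and 0.259 in C2C12 against 0.138 and 0.215 for all genes tested, so smaller differences could be called for a typical mRNA than for a typical lincRNA.

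Per kilobase, the highest level was that of Gm16854 with 92.8 CPM, followed by 2410006H16Rik, the host of 3 snoRNAs, with 76.4 CPM, and Gm17565 with 69.1 CPM. Malat1, an abundant nuclear RNA of splicing speckles, came next with 57.4 CPM per kilobase, then Gm20419 with 39.6 and 1700020I14Rik (Oip5os1, also known as Cyrano, which directs the destruction of the miRNA miR-7) with 35.7. Snhg5, a snoRNA host, had 30.3 CPM per kilobase and 1810058I24Rik had 24.8. 1500011K16Rik had 18.6 CPM per kilobase, and the last of the 10, C330006A16Rik, had 17.7. The files call 1500011K16Rik a lincRNA, but RefSeq now lists it as Mtln, which encodes the small mitochondrial protein mitoregulin, and RefSeq lists 19 of the 257 members that could be matched as protein-coding. Among the genes called below, Nlrc5 and Fam169b are 2 of these 19. Nlrc5 is known as an activator of MHC class I genes.

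The members lay close to protein-coding genes, 273 of the 359 within 5000 bases of one and 24 farther than 50000 bases from any. The median distance was 86 bases. Despite the class name, 166 members overlapped the body of a protein-coding gene. Exons of 138 members overlapped exons of a protein-coding gene, in each of the 138 on the opposite strand only. The libraries did not keep the strand, so that reads from such a pair cannot be told apart, and these members are marked where they are named. Overlaps of gene bodies without shared exons, such as that of Gm17396 with Rbms3, are not marked in each case. The members included 15 genes that contain a total of 32 snoRNAs and 8 genes that contain miRNAs.

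The first comparison asked which lincRNAs changed when siControl cells began to differentiate. Gene differences were tested with the quasi-likelihood test of edgeR, and a gene was called when its adjusted p was under 0.05 over all genes tested and its log2 fold change was over 1 in either direction. In PMs, 87 of 355 members tested rose between day 0 and day 3 (24.5%) and 48 fell (13.5%), while 17.5% of all genes rose and 14.9% fell. In C2C12 cells 75 of 348 rose (21.6%) and 41 fell (11.8%), while 16% of all genes rose and 12.7% fell. The median log2 fold change of the members was 0.23 in PMs and 0.24 in C2C12, against 0.01 and -0.01 for all genes. Most libraries in the summed counts that chose the members were taken after day 0. A weak gene that rises thus passes that limit more easily than one that falls, and all genes passed another filter. The larger share of rises and the higher median can come from this choice, so they show no trait of lincRNAs. The C2C12 count of 116 was 68 to 81 with any 1 of its 4 libraries left out and lowest without day 3 replicate 2, whereas the PM count of 135 was 115 to 127.

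**Figure D1:**
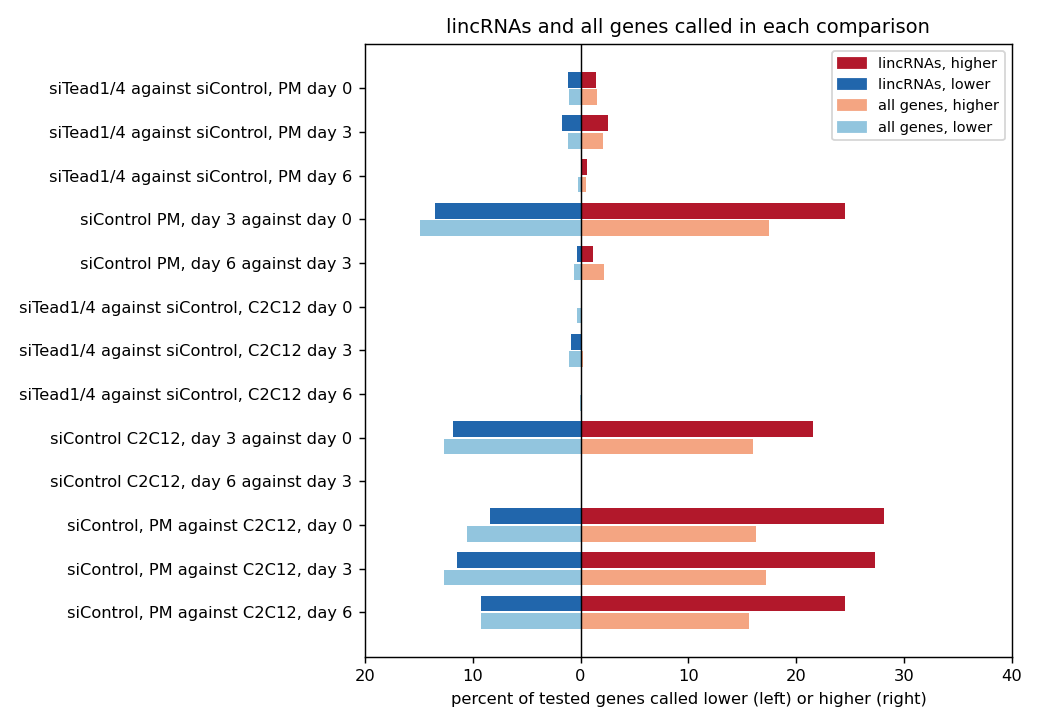
Share of genes called in each comparison, in percent of the genes tested (horizontal axis, higher to the right of 0 and lower to the left), for the expressed lincRNAs (dark bars) and for all genes (light bars). The bars are long for day 3 against day 0 and for PM against C2C12, where 24.5% of lincRNAs rose in PMs by day 3, and short for siTead1/4 against siControl, where 9 rose and 6 fell of 355 in PMs at day 3.

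Many lincRNAs changed in both cell types, which share no library. Of 344 members tested in both, 80 rose in PMs and 74 in C2C12, and 48 rose in both, which is 60.0% of the first set and 64.9% of the second. Likewise 48 fell in PMs, 40 in C2C12 and 22 in both, which is 45.8% and 55.0% of the sets. The overlap over all genes was not computed, so these shares are a description and not a trait shown to be particular to lincRNAs. Of these 344, 4 moved in opposite directions and are named after their values were seen. 2010015M23Rik, 2210406O10Rik and Nlrc5 rose in PMs and fell in C2C12, and 4930500J02Rik (Platr14 in RefSeq) fell in PMs by 1.84 on the log2 scale and rose in C2C12 by 1.85. The difference between the cell types in these 4 changes was not tested itself.

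**Figure D2:**
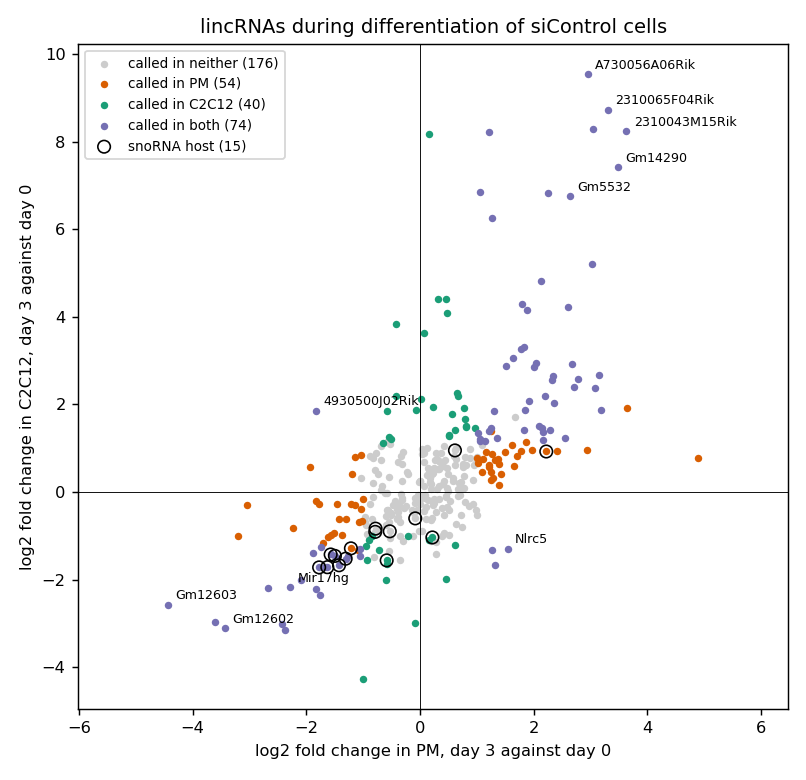
Log2 fold change between day 0 and day 3 in siControl PMs (horizontal axis) and siControl C2C12 cells (vertical axis) for the 344 lincRNAs tested in both. Each point is a gene, 74 points were called in both cell types, and rings mark the 15 snoRNA hosts, most of which lie at the lower left. For genes at or near 0 reads in C2C12 at day 0, such as A730056A06Rik, the vertical position depends on the fit and is no measured size.

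Among the lincRNAs that rose, several were next to nothing at day 0. 2310065F04Rik lies on chromosome 11 (mm9 chr11:66925963-66933582, minus strand), 10170 bases from Myh3, the embryonic myosin heavy chain of early myotubes. In siControl PMs it rose from 0.763 and 0.845 CPM at day 0 to 9.29 and 7.33 CPM at day 3, a log2 fold change of 3.31 ± 0.23 (standard error, as for each log2 fold change below, n = 2 against 2, adjusted p = 9.99e-07). In C2C12 it had no read in either replicate at day 0 and 1.04 and 1.52 CPM at day 3, which is at least 39.7-fold higher when 3 reads over both libraries are taken as the limit of a count of 0. Its level in C2C12 was 3.91 and 4.21 CPM at day 6.

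A730056A06Rik, whose exons overlap those of Rgma on the opposite strand, also had no read in C2C12 at day 0 and reached 1.93 and 2.57 CPM at day 3, at least 69.7-fold higher. In PMs it rose from 0.276 and 0.338 to 2.89 and 2.05 CPM (log2 fold change 2.95 ± 0.29, adjusted p = 1.17e-05). 4930429F24Rik, 134 bases from Tmem30a, had 2 reads in the C2C12 day 0 libraries together and 7.43 and 8.48 CPM at day 3, a ratio of 367 with a 95% counting interval of 101 to 3036. This interval, and the limits given for counts of 0, cover counting error only. In PMs the same gene rose from 2.10 and 3.49 to 25.7 and 22.0 CPM (log2 fold change 3.05 ± 0.36, adjusted p = 4.19e-05).

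In PMs the largest rises were those of Gm16170, 5930412G12Rik and 4933417D19Rik. Gm16170, which overlaps Trim7 on the opposite strand, went from 0.127 and 0.169 to 5.33 and 3.89 CPM (log2 fold change 4.90 ± 0.61, adjusted p = 5.74e-05). In C2C12 the same gene was at 0.310 and 0.213 CPM at day 0 and 0.330 and 0.567 CPM at day 3, and was not called. 5930412G12Rik (Fzd10os in RefSeq), which lies 151 bases from the Wnt receptor gene Fzd10, rose from 1.57 and 1.47 to 22.9 and 25.1 CPM (log2 fold change 3.92 ± 0.22, adjusted p = 3.61e-07). 4933417D19Rik, which overlaps 2 genes on the opposite strand, rose by 3.64 ± 0.46 on the same scale (adjusted p = 6.09e-05).

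Gm14290 lies on chromosome 2 (mm9 chr2:166924294-166927326, minus strand). It rose from 2.03 and 1.80 to 24.0 and 20.7 CPM in PMs (log2 fold change 3.48 ± 0.18, adjusted p = 2.57e-07). In C2C12 it had 2 reads at day 0 over both replicates and 4.25 and 4.45 CPM at day 3, a ratio of 200.01 (95% counting interval 55.0 to 1657). Gm14290 is thus low in both cell types before differentiation, and its levels at days 3 and 6 were close, 23.9 and 23.6 CPM in PMs and 4.99 and 6.52 CPM in C2C12 at day 6.

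The largest falls in PMs were those of Gm12603, 4930558J18Rik and Gm12602. Gm12603 (Wincr1 in RefSeq) dropped from 3.56 and 4.25 to 0.140 and 0.227 CPM (log2 fold change -4.43 ± 0.57, adjusted p = 6.88e-05) and Gm12602 from 2.99 and 3.16 to 0.365 and 0.227 CPM (-3.43 ± 0.54, adjusted p = 0.000298). Both lie on chromosome 4 with Mtap as the nearest protein-coding gene, 52508 and 8896 bases away, and both also fell in C2C12, by 2.57 and 3.11 on the log2 scale. 4930558J18Rik fell by 3.60 in PMs and by 2.97 in C2C12. In C2C12 the largest falls were those of Gm11216 (from 0.901 and 2.03 to 0.0944 and 0.0607 CPM, log2 fold change -4.25 ± 0.77, adjusted p = 0.00177), Gm13431 (-3.55 ± 0.58, adjusted p = 0.00105) and Gm17300 (-3.15 ± 0.35, adjusted p = 9.71e-05), the last of which overlaps Rcc1 on the opposite strand.

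**Figure D3:**
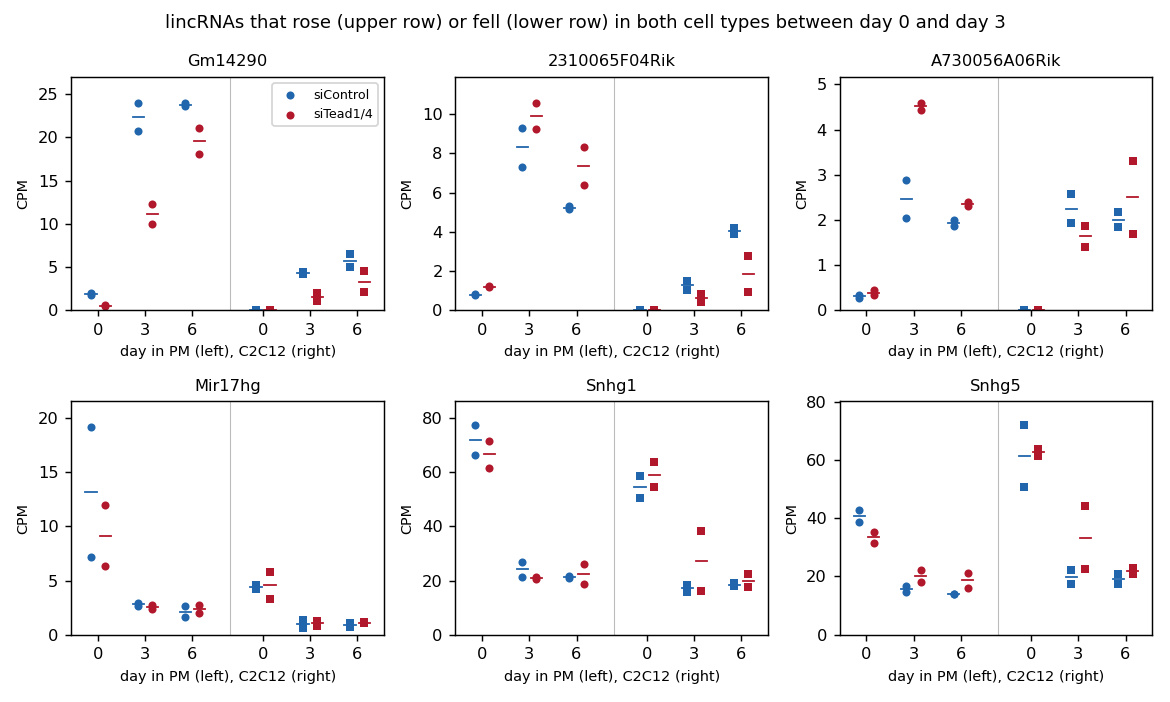
Level in CPM (vertical axis, from 0) of 3 lincRNAs that rose and 3 that fell in both cell types between day 0 and day 3, by day (horizontal axis), with PMs as circles on the left of each panel and C2C12 as squares on the right. Each point is 1 library, bars are the means of 2 replicates, blue is siControl and red siTead1/4. Gm14290 in PMs goes from 2.03 and 1.80 CPM at day 0 to 24.0 and 20.7 CPM at day 3 in siControl cells, and Snhg1 from 66.3 and 77.4 to 21.3 and 26.8 CPM.

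SnoRNA host genes, whose introns carry the small RNAs that guide the modification of ribosomal RNA, mostly moved downwards where they were called. Of 15 hosts, 7 fell and 1 rose in PMs (median log2 fold change -0.79), and 8 fell and 0 rose in C2C12 (median -1.28), where all genes had medians near 0. Of all genes, 14.9% fell and 17.5% rose in PMs, and 12.7% fell and 16% rose in C2C12. Snhg1, Snhg5, 9430008C03Rik (Snhg17), Gm11974 (Snhg15), 2700038G22Rik and 2410004N09Rik (Epb41l4aos) fell in both. Snhg12 fell in PMs, and 9430037G07Rik and 9330159M07Rik fell in C2C12. The exception was 2900076A07Rik, which rose in PMs from 1.19 and 1.49 to 6.42 and 6.52 CPM.

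Snhg1, which contains 8 snoRNA genes, fell in PMs from 66.3 and 77.4 to 21.3 and 26.8 CPM (log2 fold change -1.63 ± 0.17, adjusted p = 1.66e-05) and in C2C12 from 58.5 and 50.5 to 18.3 and 15.9 CPM (-1.71 ± 0.33, adjusted p = 0.00251). Snhg5 fell from 38.7 and 42.8 to 14.7 and 16.8 CPM in PMs (-1.43 ± 0.16, adjusted p = 2.31e-05) and from 71.9 and 50.8 to 22.3 and 17.4 CPM in C2C12 (-1.67 ± 0.30, adjusted p = 0.00174). The day 0 and day 3 libraries did not overlap for either gene in either cell type. The table counts the spliced, polyadenylated host RNA, so the snoRNAs themselves were not measured.

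Of the 8 miRNA hosts, 4 rose and 1 fell in each cell type, beside 17.5% and 14.9% of all genes in PMs and 16% and 12.7% in C2C12. The one that fell, in both, was Mir17hg (mm9 chr14:115442101-115445949, plus strand), the primary transcript of the miR-17-92 cluster, which is known to favour proliferation. It went from 7.14 and 19.2 to 2.69 and 2.91 CPM in PMs (log2 fold change -2.28 ± 0.46, adjusted p = 0.00149) and from 4.25 and 4.62 to 1.39 and 0.648 CPM in C2C12 (-2.17 ± 0.43, adjusted p = 0.00306). The PM replicates differed widely at day 0, but both stayed above both day 3 values. RefSeq (GRCm38.p6) lists 11 mature miRNAs with 9 seeds (bases 2 to 8) for the 6 hairpins of this cluster. Shown here, with the seed in capitals, are 6 of them, 1 arm of each hairpin, which is the arm that gives the miR-17, miR-18, miR-19 and miR-92 families their seeds. These 6 hold 4 seeds, with 17-5p and 20a-5p sharing a seed and 19a-3p and 19b-3p sharing another.
mmu-miR-17-5p: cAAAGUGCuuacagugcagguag
mmu-miR-20a-5p: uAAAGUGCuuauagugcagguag
mmu-miR-18a-5p: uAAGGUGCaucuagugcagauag
mmu-miR-19a-3p: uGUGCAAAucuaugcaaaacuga
mmu-miR-19b-3p: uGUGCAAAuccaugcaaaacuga
mmu-miR-92a-3p: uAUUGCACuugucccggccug
The mature miRNAs were not measured in these libraries, which hold polyadenylated RNA.

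Gm11613 and 2610206C17Rik, each listed with a miRNA gene inside it, and E130102H24Rik, the host of Mir101a, rose in both cell types. Gm11613 rose by 2.16 ± 0.25 in PMs (adjusted p = 3.7e-05) and 1.18 ± 0.34 in C2C12 (adjusted p = 0.0189) on the log2 scale. Dleu2, the host of Mir16-1, rose in PMs (1.28 ± 0.25, adjusted p = 0.00134) and Ttc28, a protein-coding gene in RefSeq that contains Mir701, in C2C12 (1.95 ± 0.38, adjusted p = 0.00272). D230004N17Rik (Mir100hg) had a log2 fold change of 0.03 in PMs and 0.99 in C2C12, and was called in neither. Mir706 was at 2.98 to 3.75 CPM in the 6 siControl PM libraries and at 3.58 to 4.45 CPM in those of C2C12, and was called in neither.

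Among 5 well-known nuclear or regulatory lincRNAs, 1700020I14Rik (Cyrano) rose in both cell types. It went from 154 and 160 to 535 and 630 CPM in PMs (log2 fold change 1.83 ± 0.18, adjusted p = 8.95e-06) and from 61.7 and 99.6 to 178 and 266 CPM in C2C12 (1.42 ± 0.33, adjusted p = 0.0068). Malat1 rose in PMs from 249 and 244 to 571 and 569 CPM (1.15 ± 0.33, adjusted p = 0.0123). In C2C12 Malat1 was at 144 and 83.4 CPM at day 0 and 323 and 119 CPM at day 3, values that overlapped, and no change was called (adjusted p = 0.35). Pvt1, a neighbour of Myc at 47613 bases, fell in C2C12 from 12.8 and 10.5 to 4.15 and 4.07 CPM (-1.54 ± 0.36, adjusted p = 0.00714). In PMs the Pvt1 log2 fold change of -0.94 missed the size limit (adjusted p = 0.000429). Tug1 was at 81.0 to 127 CPM in all siControl libraries of both cell types and was not called.

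The nearest protein-coding gene of a member called between day 0 and day 3 was itself called in the same direction for 27 of the 82 risen members with a tested neighbour and for 14 of 43 that fell in PMs, and for 30 of 69 and 12 of 34 in C2C12. The neighbour was not called for 50, 27, 34 and 22 of these, and was called in the opposite direction for 5, 2, 5 and 0. Without members whose exons overlap a protein-coding gene, the numbers were 14 of 54 (25.9%) and 10 of 27 (37.0%) in PMs, and 19 of 43 (44.2%) and 8 of 27 (29.6%) in C2C12. The shares of all genes called in these directions were 17.5%, 14.9%, 16% and 12.7% in the same order. Neighbour and member come from the same libraries, and no test was made of these shares.

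Between day 3 and day 6 little changed further. In PMs 4 members rose and 1 fell, while 2.22% of all genes rose and 0.582% fell. Gm20419 rose from 13.9 and 15.2 to 35.2 and 36.9 CPM (log2 fold change 1.30 ± 0.15, adjusted p = 0.00219), Gm17565 from 58.5 and 70.1 to 131 and 143 CPM (1.08 ± 0.19, adjusted p = 0.0113) and A430010J10Rik from 0.281 and 0.177 to 0.906 and 0.880 CPM (1.95 ± 0.40, adjusted p = 0.0227). The fourth, named after its values were seen, was Gm16854, which rose from 212 and 233 to 417 and 486 CPM (1.01 ± 0.16, adjusted p = 0.0085). Nlrc5 fell from 1.26 and 1.69 to 0.615 and 0.587 CPM (-1.31 ± 0.30, adjusted p = 0.0336). All of these calls share the day 3 libraries with the comparison above, and without siControl PM replicate 1 at day 3 a single call was left. Without day 6 replicate 2 there were 2 calls and without day 6 replicate 1 there were 3, but Gm20419 passed without any of the 4 libraries. In C2C12 edgeR called 0 members and 0.00% of all genes. An unadjusted p under 0.05 was reached by 12 members, beside 406 of all 15303 genes, and DESeq2 called 0 members.

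The second comparison asked which lincRNAs depended on Tead1 and Tead4. In PMs, siTead1/4 silencing raised 5 members and lowered 4 of 355 at day 0, while 1.50% of all genes rose and 1.10% fell. At day 3 it raised 9 (2.54% of the members, against 2.10% of all genes) and lowered 6 (1.69%, against 1.20%). At day 6 it raised 2 and lowered 0, against 0.465% and 0.279% of all genes. DESeq2 and edgeR without the filter on low counts each called 6 members at day 6, and the shares of all genes they called are not given here. With any 1 of the 4 compared libraries left out, day 0 gave 3 or 4 calls. Day 3 gave 3 calls without siControl replicate 1, 5 without siTead1/4 replicate 2, 9 without siTead1/4 replicate 1 and 15 without siControl replicate 2. At day 6, 1 call was left without siControl replicate 1 or siTead1/4 replicate 2, and 0 without siTead1/4 replicate 1 or siControl replicate 2.

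**Figure D4:**
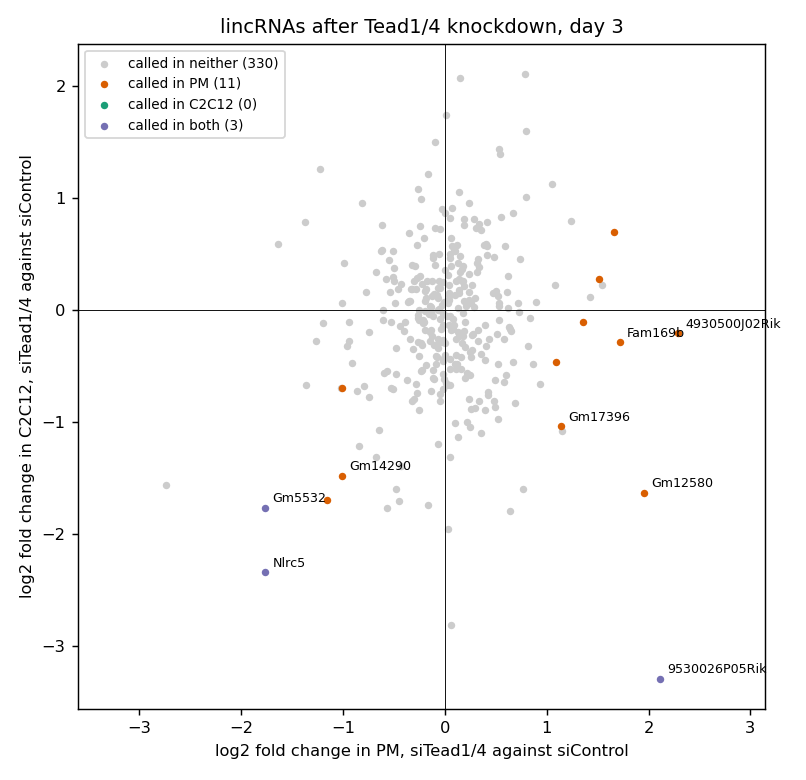
Log2 fold change of siTead1/4 against siControl at day 3 in PMs (horizontal axis) and C2C12 (vertical axis) for the 344 lincRNAs tested in both, each point a gene. No call was made for 330 genes, 11 were called in PMs alone and 3 in both. Gm5532 and Nlrc5 lie at the lower left and 9530026P05Rik at the lower right, higher in PMs and lower in C2C12.

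Gm5532 fell after siTead1/4 silencing at day 3 in both cell types. This 2-exon gene (mm9 chr1:157367303-157374241, minus strand) lies 31009 bases from its nearest protein-coding gene, Acbd6, whose own log2 fold change was 0.02 in PMs and 0.02 in C2C12. In PMs Gm5532 was at 4.12 and 3.49 CPM in siControl cells and at 0.966 and 1.30 CPM in siTead1/4 cells at day 3 (log2 fold change -1.76 ± 0.32, adjusted p = 0.00898). In C2C12 it was at 11.6 and 11.0 CPM against 3.10 and 3.66 CPM (-1.77 ± 0.36, adjusted p = 0.0475). At day 6 the C2C12 values still did not overlap, with 20.6 and 18.8 CPM against 7.26 and 7.60 CPM, but the change missed the threshold (-1.40 ± 0.35, adjusted p = 0.281).

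Before differentiation Gm5532 was low, with 0.678 and 0.479 CPM in siControl PMs and 0.113 and 0.0888 CPM in siControl C2C12 cells at day 0. It rose by day 3 in both, by 2.64 ± 0.34 in PMs and 6.76 ± 0.51 in C2C12 on the log2 scale, comparisons that share the day 3 siControl libraries with those of the silencing. The call in PMs was lost without siControl replicate 1 or siTead1/4 replicate 1, and the call in C2C12 without any of its 4 libraries.

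Nlrc5 likewise was lower in siTead1/4 cells of both types at day 3. PMs had 1.26 and 1.69 CPM with siControl and 0.472 and 0.399 CPM with siTead1/4 (log2 fold change -1.76 ± 0.30, adjusted p = 0.00717), and C2C12 had 1.49 and 1.36 CPM against 0.238 and 0.324 CPM (-2.35 ± 0.45, adjusted p = 0.0373). The PM call was lost only without siTead1/4 replicate 2, and the C2C12 call without any of its libraries. In C2C12 the Nlrc5 levels did not overlap at day 0 either, at 2.79 and 3.96 CPM against 1.03 and 0.732 CPM, but were not called (-1.93 ± 0.41, adjusted p = 0.0787). Cpne2, 5718 bases away, fell in PMs by 1.21 on the log2 scale (adjusted p = 0.0112) and had a log2 fold change of -0.17 in C2C12 (adjusted p = 0.787).

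4930500J02Rik (Platr14) was the lincRNA that rose most after silencing in PMs at day 3. At day 0 it was at 5.68 and 7.27 CPM in siControl and 19.4 and 21.5 CPM in siTead1/4 PMs (log2 fold change 1.65 ± 0.28, adjusted p = 0.00734). At day 3 it was at 1.29 and 2.45 CPM against 7.62 and 10.9 CPM (2.29 ± 0.30, adjusted p = 0.00184), and this call held without any of the 4 libraries. At day 6 it was at 1.58 and 2.15 CPM against 4.96 and 5.33 CPM, which did not overlap but just missed the threshold (1.46 ± 0.30, adjusted p = 0.0504). The day 0 call was lost without siControl replicate 1 or siTead1/4 replicate 2. In C2C12 the groups lay close at day 3, with 10.5 and 9.90 CPM against 8.57 and 9.40 CPM (-0.21 ± 0.32, adjusted p = 0.851).

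Because TEAD factors bind MCAT elements, the promoters of Gm5532 and Nlrc5, called in both cell types, are shown with that of 2310065F04Rik, which rose in differentiation but was not called after silencing. Each window runs from 250 bases before to 50 bases after the annotated start of the gene in mm9, 5′ to 3′ on the strand of the gene. Letters that match the MCAT element (CATTCC, or GGAATG on the other strand) are in capitals.
Gm5532, minus strand, chr1:157374192-157374491: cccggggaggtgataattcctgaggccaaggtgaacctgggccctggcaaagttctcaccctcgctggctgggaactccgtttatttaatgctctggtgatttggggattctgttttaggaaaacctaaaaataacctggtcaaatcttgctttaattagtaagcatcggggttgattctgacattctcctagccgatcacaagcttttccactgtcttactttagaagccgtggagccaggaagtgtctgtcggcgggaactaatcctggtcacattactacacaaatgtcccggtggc
Nlrc5, plus strand, chr8:96996413-96996712: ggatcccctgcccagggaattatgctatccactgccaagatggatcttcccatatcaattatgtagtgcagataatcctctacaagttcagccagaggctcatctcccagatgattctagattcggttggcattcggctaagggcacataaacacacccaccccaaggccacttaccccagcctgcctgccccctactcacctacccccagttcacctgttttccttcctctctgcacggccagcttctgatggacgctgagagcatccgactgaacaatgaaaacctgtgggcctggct
2310065F04Rik, minus strand, chr11:66933533-66933832: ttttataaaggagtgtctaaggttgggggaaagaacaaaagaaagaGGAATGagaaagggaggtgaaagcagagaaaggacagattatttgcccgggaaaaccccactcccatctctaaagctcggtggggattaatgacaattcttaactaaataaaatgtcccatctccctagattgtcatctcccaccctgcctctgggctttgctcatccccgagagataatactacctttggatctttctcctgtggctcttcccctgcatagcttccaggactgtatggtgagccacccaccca
2310065F04Rik held 1 match, whose first base lies at -204 from the start, and Gm5532 and Nlrc5 held 0. None of the 3 windows held the E-box CAGCTG, which reads the same on both strands and does not overlap the MCAT letters. Over all 27905 promoters of the table's genes in this annotation, 13.5% held at least 1 MCAT match and 30 (0.108%) held 3 or more. Among 357 member promoters, 56 (15.7%) held at least 1 and 2 (0.560%) held 3 or more, and of the 23 members called after silencing in any comparison, 2 (8.70%) held at least 1. The windows shown do not stand for the other called members. The E-box was in 15.7% of member promoters and 15.7% of all promoters. A match is a run of letters and not a measured binding site.

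9530026P05Rik moved in opposite directions in the 2 cell types. This gene (mm9 chr6:92890363-93222883, plus strand) spans Adamts9, an extracellular protease gene, without sharing exons with it. At day 3 it was at 0.253 and 0.379 CPM in siControl and 1.09 and 1.69 CPM in siTead1/4 PMs (log2 fold change 2.11 ± 0.36, adjusted p = 0.00695). In C2C12 it was at 1.77 and 1.56 CPM against 0.0794 and 0.255 CPM (-3.29 ± 0.53, adjusted p = 0.0249). The PM call was lost without siControl replicate 1 or siTead1/4 replicate 2, and the C2C12 call held only without siTead1/4 replicate 1. Adamts9 was not called in PMs (log2 fold change 0.73, adjusted p = 0.119) and was too low in C2C12 to be tested.

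Gm12580 rose in PMs at day 3 from 0.477 and 0.935 to 2.96 and 2.59 CPM (log2 fold change 1.95 ± 0.35, adjusted p = 0.00875), a call lost without either replicate 1. The other risen members at day 3, named after their values were seen, had log2 fold changes between 1.10 and 1.72. They were Fam169b (1.72 ± 0.30), 2610307P16Rik (1.66 ± 0.33), C430049B03Rik (1.52 ± 0.23), E130307A14Rik (1.36 ± 0.26), Gm17396 (1.14 ± 0.21) and Gm16707 (1.10 ± 0.28), with adjusted p from 0.00387 for C430049B03Rik to 0.0398 for Gm16707. With 1 library left out 3 to 15 members were called at day 3, and which of these calls held is not given by gene. E130307A14Rik overlaps Traf3ip2 on the opposite strand. C430049B03Rik had the highest counts of these, with 11.6 and 18.6 CPM in siControl and 49.2 and 37.7 CPM in siTead1/4 cells.

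Gm14290, which rose during differentiation, was lower in siTead1/4 PMs. At day 0 it was at 2.03 and 1.80 CPM in siControl and 0.447 and 0.612 CPM in siTead1/4 cells (log2 fold change -1.85 ± 0.22, adjusted p = 0.0016), and this call held without any of the 4 libraries. At day 3 it was at 24.0 and 20.7 CPM against 12.3 and 9.96 CPM (-1.01 ± 0.16, adjusted p = 0.00489), and by day 6 the difference was small, with 23.9 and 23.6 against 21.0 and 18.01 CPM (-0.28, adjusted p = 0.562). 1110018N20Rik, named after its values were seen, whose exons overlap those of other genes, fell by 1.51 and 1.15 on the log2 scale at days 0 and 3, and part of its reads may belong to those genes. Whether its calls held with a library left out is not given here.

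5930412G12Rik was at 1.57 and 1.47 CPM in siControl and 0.329 and 0.198 CPM in siTead1/4 PMs at day 0 (log2 fold change -2.55 ± 0.30, adjusted p = 0.0016), a call that held without any of the 4 libraries. At day 3 its levels of 22.9 and 25.1 CPM against 16.4 and 14.5 CPM did not overlap but were not called (-0.64 ± 0.19, adjusted p = 0.0689). Its neighbour Fzd10 was low, with means of 0.307 CPM in siControl and 0.0668 CPM in siTead1/4 cells at day 0, and fell (-2.22, adjusted p = 0.015). 2010300F17Rik, which overlaps Skap1 on the opposite strand, had the largest fall at day 0 (-2.74 ± 0.54, adjusted p = 0.0139), and its call was lost without any of the 4 libraries.

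Of the members that rose at day 0, Gm11216 went from 0.360 and 0.254 to 1.39 and 1.42 CPM (log2 fold change 2.16 ± 0.37, adjusted p = 0.00773), a call that held only without siTead1/4 replicate 2. C330013E15Rik (1.60 ± 0.37, adjusted p = 0.0276) lost its call without any of the 4 libraries and in DESeq2 (adjusted p = 0.061). Named after their values were seen, 5033417F24Rik (1.55 ± 0.38, adjusted p = 0.0372), which overlaps Dusp28 on the opposite strand, and Gm807 (1.53 ± 0.30, adjusted p = 0.0132) also rose. With 1 library left out only 3 or 4 members were called at day 0, and whether these calls held is not given by gene. At day 3, Gm13943 fell by 1.53 on the log2 scale (adjusted p = 0.0357, lost without any of the 4 libraries) and 4732491K20Rik, named after its values were seen, by 1.01 (adjusted p = 0.0422). Whether the call of 4732491K20Rik held with a library left out is not given here.

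At day 6 the 2 risen members in PMs were F730043M19Rik and Gm16197. Gm16197 is Trp53cor1 in RefSeq, known as lincRNA-p21, a p53-induced RNA that lies 12018 bases from the cell cycle inhibitor gene Cdkn1a. It was at 9.67 and 8.90 CPM in siControl and 19.6 and 18.5 CPM in siTead1/4 cells (log2 fold change 1.04 ± 0.13, adjusted p = 0.00619), while Cdkn1a itself, at means of 2333 and 2580 CPM, was not called (0.15, adjusted p = 0.791). At day 0 the order of the groups was the reverse, with 7.38 and 8.17 CPM in siControl and 5.01 and 5.65 CPM in siTead1/4 cells (-0.55 ± 0.13, adjusted p = 0.0333, under the size limit). F730043M19Rik went from 4.56 and 4.14 to 8.78 and 9.64 CPM (1.08 ± 0.20, adjusted p = 0.0334). The call of Gm16197 was lost without siTead1/4 replicate 1 or siControl replicate 2, and that of F730043M19Rik without any of the 4 libraries.

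In C2C12, edgeR called 0 of 348 members at day 0, where 0.438% of all genes were called. An unadjusted p under 0.05 was reached by 28 members, beside 1603 of all 15303 genes. DESeq2 called 2 members and edgeR without the filter on low counts called 4. At day 3 edgeR with the filter called 0 members higher and 3 lower (0.862%), against 0.190% and 1.08% of all genes. The 3 were Gm5532, Nlrc5 and 9530026P05Rik. DESeq2 called 12 members at day 3 and edgeR without the filter on low counts called 19. For edgeR with the filter, there were 10 calls without siTead1/4 replicate 1, and 0 without siTead1/4 replicate 2 or either siControl library. At day 6 edgeR called 0 members, where 0.0457% of all genes were called. An unadjusted p under 0.05 was reached by 19 members, beside 1064 of all 15303 genes. DESeq2 called 3 members and edgeR without the filter called 5. The shares of all genes called by DESeq2 or without the filter are not given here, so those counts stand without a background.

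Over the 27 snoRNA hosts, miRNA hosts and well-known lincRNAs, edgeR made 0 calls in the 6 siTead1/4 comparisons, with 16 of 162 tests at an unadjusted p under 0.05. Of all genes, the share called ran from 0.0457% in C2C12 at day 6 to 2.10% higher and 1.20% lower in PMs at day 3. The genes at an unadjusted p under 0.05 ran from 1064 of 15303 in C2C12 at day 6 to 3756 of 16144 in PMs at day 0. A count of 0 in so few genes does not show that they did not respond. DESeq2 made 2 calls, Snhg12 and 2410006H16Rik in C2C12 at day 3. The siTead1/4 replicate 2 library of C2C12 at day 3 stood apart for some snoRNA hosts and for some other members. There Snhg12 was at 64.5 CPM, with 10.8 CPM in replicate 1, and 2410006H16Rik at 141 CPM, with 37.8 CPM in replicate 1. Snhg1 was at 38.3 against 16.2 CPM, Snhg5 at 44.0 against 22.6 CPM and Pvt1 at 11.7 against 5.69 CPM in the same pair of libraries. Other hosts lay close, such as 0610007N19Rik with 513 reads in replicate 2 and 519 in replicate 1. Among members that are no snoRNA hosts, 1810014B01Rik had 975 reads in replicate 2 and 113 in replicate 1. In the other direction, Gm2115 had 136 reads in replicate 2 and 531 in replicate 1.

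**Figure D5:**
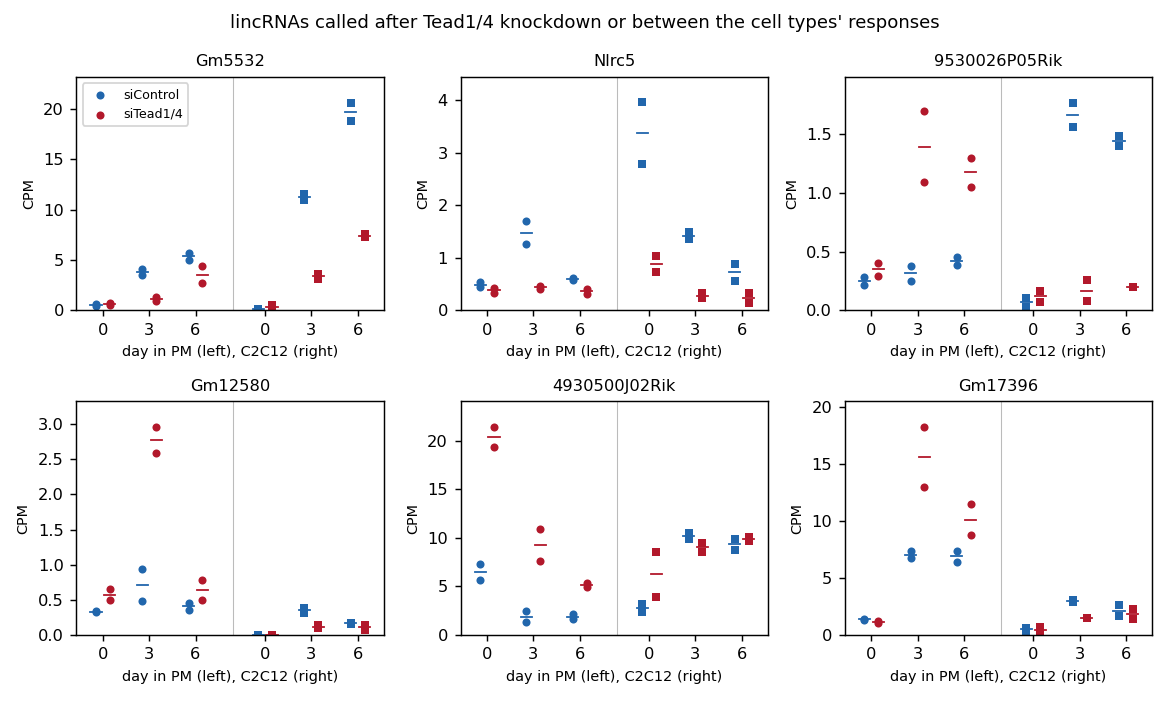
Level in CPM (vertical axis, from 0) of 6 lincRNAs by day (horizontal axis) in PMs (circles, left of each panel) and C2C12 (squares, right), with siControl in blue, siTead1/4 in red, 1 point per library and bars for the means of 2 replicates. At day 3 the siTead1/4 points of Gm5532 lie below those of siControl in both cell types, while 9530026P05Rik is at 1.09 and 1.69 CPM in siTead1/4 PMs and at 0.0794 and 0.255 CPM in siTead1/4 C2C12 cells.

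An interaction term over all 24 libraries, which include those of the comparisons above, tested if PMs and C2C12 responded unequally to silencing. At day 3, 4 members had a more positive response in PMs and 0 in C2C12, while 1.02% and 0.236% of all genes were called in these directions. They were 9530026P05Rik (difference of log2 fold changes 5.38 ± 0.63, adjusted p = 0.000525), Gm12580 (3.57 ± 0.60, adjusted p = 0.0104), 4930500J02Rik (2.49 ± 0.46, adjusted p = 0.0135) and, named after its values were seen, Gm17396 (2.17 ± 0.49, adjusted p = 0.0394). Gm12580 was at 0.307 and 0.385 CPM in siControl and 0.132 and 0.0926 CPM in siTead1/4 C2C12 cells at day 3. Gm17396 was at 6.71 and 7.36 against 13.0 and 18.3 CPM in PMs and at 3.09 and 2.85 against 1.48 and 1.46 CPM in C2C12.

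The difference for 9530026P05Rik at day 3 held without any of the 8 libraries. That for 4930500J02Rik was lost without siControl PM replicate 1 or siTead1/4 PM replicate 2, and that for Gm12580 without siControl PM replicate 1 or siControl C2C12 replicate 2. The count of calls was 1 without siControl PM replicate 1 and 2 without siTead1/4 PM replicate 2 or siControl C2C12 replicate 2. It rose to 17 without siTead1/4 C2C12 replicate 1, and was 3 without any other library. Since the other named members fill these lower counts, the call of Gm17396 was lost without each library other than siTead1/4 C2C12 replicate 1. At day 6 only 9530026P05Rik was called (4.30 ± 0.63, adjusted p = 0.0184), where 0.0295% and 0.00591% of all genes were called, and it was lost without any library but siTead1/4 C2C12 replicate 2. At day 0 the count was 0, with 0.00591% of all genes called. An unadjusted p under 0.05 was reached by 13 members, beside 725 of all 16926 genes, and DESeq2 called 0 members.

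The last comparison set siControl PMs against siControl C2C12 cells. At day 0, 101 of 359 members were higher in PMs (28.1%) and 30 lower (8.36%), while 16.3% of all genes were higher and 10.5% lower. At day 3 the counts were 98 (27.3%) and 41 (11.4%), against 17.2% and 12.6% of all genes, and at day 6 they were 88 (24.5%) and 33 (9.19%), against 15.7% and 9.22%. The median log2 fold change of the members was 0.44, 0.43 and 0.46 at the 3 days, against 0.03, 0.03 and 0.02 for all genes. The test compares 2 libraries of PMs with 2 of a single cell line at each day.

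Gm17431 (mm9 chr5:5781530-5783636, plus strand) was read in C2C12 alone. It had 0 reads in all 12 PM libraries, siControl and siTead1/4 alike, and 34.0 to 64.0 CPM in the 12 C2C12 libraries. In siControl cells it was at least 1619-fold lower in PMs at day 0, 1067-fold at day 3 and 815-fold at day 6. It was the only member with no read in one of the cell types. AI662270 was also low in PMs, with 0.0281 and 0.0505 CPM against 1.46 and 1.25 CPM in C2C12 at day 3, a ratio of 33.9 (95% counting interval 11.3 to 166). Gm13431 at day 3 had no read in siControl PMs and 0.260 and 0.182 CPM in C2C12, at least 5.46-fold lower in PMs, and 4930544I03Rik at day 6 was lower in PMs by 4.04 ± 0.68 on the log2 scale (adjusted p = 0.0002).

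In the other direction, 5930412G12Rik had no read in C2C12 at day 0 and day 6 and 2 reads at day 3 in siControl cells, and was at least 46.6-fold higher in PMs at day 0 and at least 615-fold at day 6. At day 3 the ratio was 1105 (95% counting interval 306 to 9133). Gm2716 and 2610507I01Rik had no read in siControl C2C12 cells at day 3, against 4.63 and 2.12 CPM and 7.13 and 5.74 CPM in PMs, which makes them at least 101-fold and 196-fold higher. A330094K24Rik was at least 51.8-fold and 2900079G21Rik, which overlaps Arpp21 on the opposite strand, at least 39.6-fold higher in PMs at day 0. Gm16882, which overlaps exons of the Pcdhgc5 protocadherin gene on the opposite strand, was at 7.08 and 4.99 CPM in PMs and 0.0193 and 0.0334 CPM in C2C12 at day 6, a ratio of 247 (95% counting interval 67.9 to 2048).

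Among the listed groups, 2 of 8 miRNA hosts were higher in PMs at day 0, 4 at day 3 and 3 at day 6, with 0 lower. The shares of all genes higher in PMs were 16.3%, 17.2% and 15.7% at these days. D230004N17Rik (Mir100hg), the host of Mir125b-1, was at 0.593 and 0.733 CPM in PMs against 0.141 and 0.0888 CPM in C2C12 at day 0 (log2 fold change 2.54 ± 0.43, adjusted p = 0.000171) and higher at day 3 and day 6 as well. Of 15 snoRNA hosts, 1 was higher in PMs at day 0, 2 were higher and 1 lower at day 3, and 1 was higher at day 6. 1700020I14Rik was higher in PMs at day 3 (1.39 ± 0.28, adjusted p = 0.000729) and day 6 (1.05 ± 0.28, adjusted p = 0.00719), and Malat1 at day 6 (1.91 ± 0.65, adjusted p = 0.0278), with 648 and 1013 CPM in PMs against 323 and 119 CPM in C2C12.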

How the data were processed

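Polyadenylated RNA of 24 libraries was sequenced with an unstranded kit. Per the labels, the authors used CASAVA 1.8.2, TopHat2 2.0.10 with Bowtie2 2.1.0 on mm9, and HTSeq 0.6.1, and deposited 1 table of raw read counts per gene beside values scaled with DESeq2 1.8.1, which were not used here. The deposited counts were the unit of all tests, and gene lengths and positions came from the same table. 36 columns of 12 libraries that the series' samples do not list were not used.

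Members were annotated lincRNAs with at least 500 reads summed over the 24 libraries. The members, the gene lists and the rule for named genes were chosen with earlier results of these data known. Named were the 10 members with the highest CPM per kilobase, up to 3 with the largest rise and 3 with the largest fall among those called in each comparison, and members of the lists.

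Genes were tested with edgeR 4.0.16 (R 4.3.3, limma 3.58.1; filterByExpr, TMM, quasi-likelihood F test) on the whole table, in 1 fit of 12 libraries per cell type for siTead1/4 and day comparisons, and in 1 fit of all 24 libraries for PM against C2C12 and the interactions. 16144 genes were tested in PMs, 15303 in C2C12 and 16926 in all libraries. P-values were adjusted by Benjamini-Hochberg over all genes tested, and a call needed an adjusted p under 0.05 and a log2 fold change over 1 in size. With 2 replicates per group, a p-value sets a difference against the spread between replicates of these samples. That spread is shared over all groups of the fit and drawn towards that of other genes, so it is not that of the compared groups alone. CPM used TMM library sizes over all 24 libraries. Where a group had 0 reads, 3 reads over its 2 libraries were taken as the limit, and with 1 to 3 reads an exact 95% interval of the ratio was given. The scripts were tested on simulated data. Alternatives were relative log expression (RLE) size factors, no filter on low counts, DESeq2 1.42.0, the replicate number as a block, and leaving out each library. Promoters were read from the mm9 genome at gene starts of GENCODE vM1, which held 357 of the 359 members. The promoter of 1 member and the values of 1 neighbouring gene are not reported here. RefSeq (GRCm38.p6) gave names and miRNA sequences.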

Additional observations from a re-analysis of the deposited data

Results flagged for a closer look

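The response to siTead1/4 silencing differed between PMs and C2C12 for 4 lincRNAs at day 3 by the interaction test of edgeR over all genes. The difference, as log2 fold change in PMs minus that in C2C12, was 5.38 for 9530026P05Rik, 3.57 for Gm12580, 2.49 for 4930500J02Rik and 2.17 for Gm17396. For 9530026P05Rik both responses were called, in opposite directions, whereas for the other 3 the response was called in PMs and not in C2C12. The difference for Gm17396 was lost when most single libraries were left out. At day 6 the difference was 4.30 for 9530026P05Rik, with 0.388 and 0.456 CPM in siControl against 1.30 and 1.05 CPM in siTead1/4 PMs, and 1.48 and 1.40 CPM against 0.202 and 0.199 CPM in C2C12. The summed myogenic markers differed between siControl and siTead1/4 at day 3 in both cell types, at 21114 to 21625 against 17041 to 19459 CPM in PMs and 10050 to 12951 against 3592 to 4752 CPM in C2C12, and their part in these differences was not tested. Cell type and mouse strain cannot be told apart here.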

How the results depend on the processing

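Without the filter on low counts, the number of lincRNAs called after siTead1/4 silencing was 6 in PMs at day 6 (2 with the filter), and in C2C12 it was 4 at day 0 (0), 19 at day 3 (3) and 5 at day 6 (0). The same setting gave 3 calls for C2C12 day 6 against day 3 (0), 15 for the difference between cell types at day 3 (4) and 3 at day 6 (1). DESeq2 called 6 in PMs at day 6, 2, 12 and 3 in C2C12 at days 0, 3 and 6, and 11 for the difference between cell types at day 3. The cause was not tested, and the shares of all genes called under these settings are not given here. The replicate number as a block gave 23 calls in PMs at day 3 (15 without it), 7 in PMs at day 6 (2) and 5 in C2C12 at day 3 (3). No other count moved by over 1.5 times under the block. The labels do not say that a number marks a shared culture or day. Deviations from the group means of same-numbered samples correlated with r of 0.514 to 0.664 for silencing in PMs and -0.262, 0.0849 and 0.614 in C2C12 at days 0, 3 and 6. Crossing the numbers in C2C12 at day 0, chosen after seeing the data, gave 0 calls.

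Leaving out 1 library gave, after silencing, 3 to 4 calls in PMs at day 0, 3 to 15 at day 3 and 0 to 1 at day 6. In C2C12 it gave 0 to 2, 0 to 10 and 0 to 0, where the 2 came without siTead1/4 replicate 2 and the 10 without siTead1/4 replicate 1. Day 3 against day 0 gave 115 to 127 in PMs and 68 to 81 in C2C12 (lowest without day 3 replicate 2), and day 6 against day 3 gave 1 to 4 and 0 to 0. PM against C2C12 gave 99 to 115, 114 to 130 and 97 to 105 at the 3 days, and the difference in response gave 0 to 0, 1 to 17 and 0 to 1. Of 55 values of named genes, the call and direction held for 55 with RLE size factors, 55 without the filter, 55 under the block and 53 with DESeq2. The 2 lost in DESeq2 were C330013E15Rik after silencing in PMs at day 0 (adjusted p = 0.061) and Nlrc5 between days 3 and 6 (adjusted p = 0.072). Leaving out 1 library kept 175 calls and lost 61, and no direction was reversed. With 2 replicates per group and a median of 1398 reads per member over all libraries, small differences of weak genes were not detectable.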
